A study of Mus musculus with 12 samples.

Results

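The Hippo-YAP pathway was followed in mouse hearts through 10 of its genes: the coactivators *Yap1* and *Wwtr1*, the DNA-binding partners *Tead1*, *Tead2* and *Tead4*, the kinases *Lats1* and *Lats2*, and the target genes *Ctgf*, *Cyr61* and *Amotl2*. The genes were taken by symbol and stand on 11 of the 53801 gene identifiers. The added identifier is a second one for *Lats2* and held 0 counts in all 12 libraries. All 10 genes passed edgeR's filter on low counts and were among the 15306 genes tested. RNA came from whole hearts of C57BL/6N mice, for which the labels give no genotype or treatment beyond the surgery, after sham surgery or 1 or 7 days after acute myocardial infarction (AMI) made by ligation of the left coronary artery. There were 4 hearts and 4 libraries in each of 3 groups: sham, AMI on day 1 and AMI on day 7. The study's methods give male mice of 10 to 14 weeks for its surgeries, and the day on which sham hearts were taken is not clear from the sources used here. The question was how the level of each gene in the infarcted heart on day 1 and on day 7 compared with the level after sham surgery.

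The Hippo pathway is a chain of kinases that holds back tissue growth. When it is active, LATS1 and LATS2 phosphorylate YAP and its paralog TAZ, which *Wwtr1* encodes, and the coactivators stay in the cytoplasm or are degraded. When it is inactive they enter the nucleus, bind TEAD proteins, and drive genes such as *Ctgf* and *Cyr61*. In the heart the pathway is known for limiting the division of cardiomyocytes, and YAP and TAZ are known for acting in fibroblasts as well. The control acts largely on the proteins, which were not measured here.

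Each library held between 23204551 and 32166517 counts. Levels are given as CPM, read counts scaled to the size of each library after TMM normalization, which corrects for a few very abundant transcripts, or as the deposited TPM, which also allow for gene length. TMM factors were 0.781 to 0.917 for sham libraries and 1.01 to 1.17 for AMI libraries, so the normalization itself moves with the groups. Genes of the mitochondrial genome held 17.9 to 27.4% of counts in sham libraries and 12.1 to 19.2% in AMI libraries, and their part in the factors was not tested. A count of 3, taken as the floor of a library, was between 0.0895 and 0.156 CPM, and this floor covers counting error only. Changes are log2 fold changes (FC) from a quasi-likelihood test with edgeR, fitted once to all 12 libraries, with Benjamini-Hochberg adjusted p-values over 15306 genes (FDR), and all adjusted p-values of gene changes below are from this fit unless another is named. A differentially expressed gene (DEG) had an FDR below 0.05 and an FC of 2 or greater. The comparisons of day 1 and day 7 with sham share the sham hearts.

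On day 1 the largest log2 FCs were those of the targets *Ctgf* and *Cyr61*, whose mean levels in CPM went from 71.7 ± 42.2 and 49.5 ± 20.2 (SD, n = 4) in sham hearts to 433 ± 194 and 109.6 ± 39.8 on day 1. Among the regulators, *Wwtr1*, *Tead2* and *Lats1* rose between day 1 and day 7, while *Yap1*, *Tead1* and *Lats2* had log2 FCs between -0.23 and 0.14 in each comparison. On day 1, 4 of the 10 genes were higher than in sham hearts at an FDR below 0.05, where 22.0% of all genes tested were, and 0 were lower, where 19.9% of all genes were. The count of lower genes was 0 at an unadjusted p below 0.05 in edgeR and 0 in DESeq2 too. The 4 were *Tead2*, *Tead4*, *Ctgf* and *Cyr61*, and 2 of them, *Ctgf* and *Cyr61*, were DEGs, against 7.79% of all genes. Downward, 0 of the 10 were DEGs, where 2.98% of all genes were. On day 7, 6 of the 10 genes were higher than in sham hearts (*Wwtr1*, *Tead2*, *Tead4*, *Lats1*, *Ctgf* and *Cyr61*), against 30.9% of all genes. *Amotl2* alone was lower (though 0.21 on log2(TPM + 1), where the median of all genes was 0.44), against 28.4% of all genes. *Tead2* and *Ctgf* were DEGs, against 15.3% of all genes, and downward 0 were, against 5.88%. Against day 1, *Wwtr1*, *Tead2* and *Lats1* were higher on day 7, where 24.2% of all genes were. *Yap1* was lower (though 0.016 on log2(TPM + 1), where the median of all genes was 0.18), as were 22.8% of all genes. In that comparison 0 of the 10 were DEGs in edgeR or in DESeq2, or at an unadjusted p below 0.05 with an FC of 2 in edgeR, where 8.55% of all genes were DEGs upward and 2.69% downward. The median log2 FC of the 10 genes was 0.12 on day 1 and 0.44 on day 7 against sham, where the median of all genes tested was -0.012 and 0.026. With 10 genes, the shares are coarse, and from day 1 to day 7 the share called higher lay near that of all genes.

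**Figure D1:**
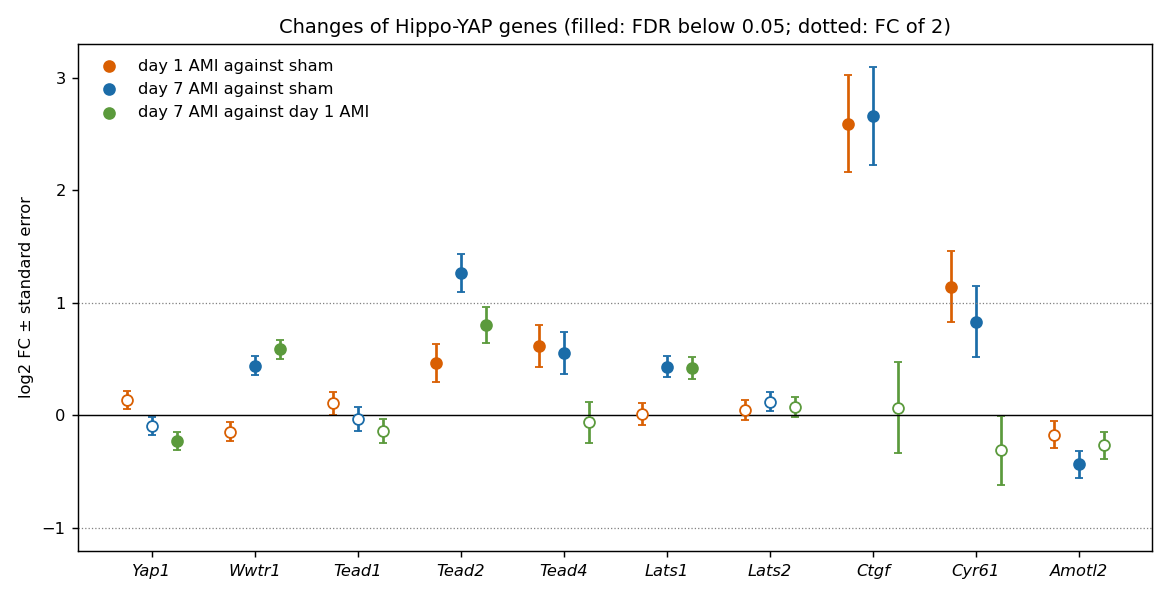
Log2 FC (vertical axis) of each of the 10 genes (horizontal axis) in the 3 comparisons, with standard errors as bars, filled points for an FDR below 0.05 and dotted lines at an FC of 2. *Ctgf* stands highest at 2.59 and 2.66, and *Tead2* climbs from 0.47 on day 1 to 1.27 on day 7. The values below 0 of *Yap1*, *Wwtr1*, *Tead1* and *Amotl2* turn positive on TPM, where the median of all genes shifted up.

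Some of these directions depend on how the libraries are set to one scale. With library size alone the median log2 FC of all genes tested became 0.26 on day 1 and 0.43 on day 7 against sham, and with limma on log2(TPM + 1) it became 0.23 and 0.44, while from day 1 to day 7 it became 0.15 and 0.18. The share of calls that were higher went from 52.5% to 85.6% and 89.3% on day 1 and from 52.1% to 83.2% and 90.2% on day 7. Relative to that shift, *Ctgf* was 2.64 with library size alone and 2.84 on TPM on day 7, and *Tead2* was 1.24 and 1.12, close to the TMM values. A ratio of genes within one heart does not change with the factor that scales its library, though it differs between TPM and CPM, and such ratios are given in TPM beside the levels.

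**Figure D2:**
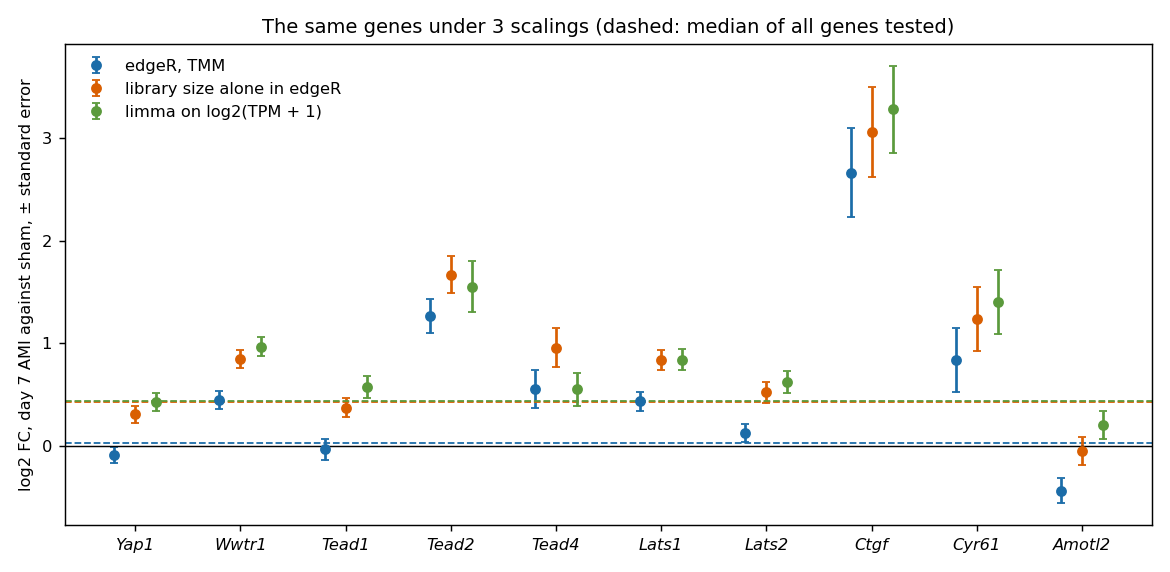
Log2 FC of day 7 AMI against sham (vertical axis) for the 10 genes under TMM, library size alone and limma on log2(TPM + 1), with standard errors as bars and the median of all genes under each scaling as dashed lines. *Yap1* moves from -0.092 to 0.31 and 0.43 as the dashed line moves to 0.43 and 0.44, and *Wwtr1*, *Tead2*, *Lats1*, *Ctgf* and *Cyr61* lie above the line in all 3. So do *Tead4*, only 0.12 above it on log2(TPM + 1), and *Lats2*, only 0.097 above it under TMM.

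TEAD proteins bind DNA at the letters GGAATG, which read CATTCC on the other strand, and RefSeq promoters (GRCm38.p6, 250 bases before to 50 bases after the gene start) were at hand for 7 of the 10 genes, with 9 promoters in all since *Wwtr1* and *Lats2* have a pair each. No promoter was at hand for *Ctgf*, *Tead1* and *Tead4*, so theirs were not searched for either motif. The letters stood on one strand or the other in 6 of the 9 (at *Yap1*, *Wwtr1*, *Lats2*, *Cyr61* and *Amotl2*, with both overlapping *Wwtr1* promoters holding the same match) and in 14.7% of all 32851 promoters. The AP-1 letters TGANTCA stood in 0 of the 9 and in 7.81% of all promoters, and a match of one motif can share the letters CA with a match of the other. A match is a description of the letters and not a site. The promoters of *Cyr61* and *Amotl2* are shown because these targets moved in opposite directions on day 7 by TMM. On log2(TPM + 1) both log2 FCs were above 0, but relative to the median of all genes they were 0.97 and -0.23. The promoter of *Ankrd1*, a muscle ankyrin repeat gene and known YAP target outside the 10, is shown because it had the highest log2 FC on day 1 of the other targets tested. Each runs 5′ to 3′ on the gene's strand, with the TEAD letters in capitals.
Cyr61 (chr3:145649936-145650235, strand -): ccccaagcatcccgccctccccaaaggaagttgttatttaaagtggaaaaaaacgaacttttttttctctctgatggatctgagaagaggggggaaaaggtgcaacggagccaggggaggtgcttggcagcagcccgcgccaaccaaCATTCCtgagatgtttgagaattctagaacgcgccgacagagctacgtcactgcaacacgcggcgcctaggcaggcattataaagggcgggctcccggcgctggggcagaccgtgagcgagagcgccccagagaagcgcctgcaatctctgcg
Amotl2 (chr9:102717554-102717853, strand +): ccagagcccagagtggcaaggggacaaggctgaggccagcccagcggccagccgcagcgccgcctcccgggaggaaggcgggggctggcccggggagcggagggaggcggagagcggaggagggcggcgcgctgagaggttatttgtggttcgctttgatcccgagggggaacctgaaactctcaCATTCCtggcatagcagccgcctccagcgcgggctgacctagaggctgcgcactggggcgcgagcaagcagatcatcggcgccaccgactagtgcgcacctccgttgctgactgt
Ankrd1 (chr19:36119795-36120094, strand -): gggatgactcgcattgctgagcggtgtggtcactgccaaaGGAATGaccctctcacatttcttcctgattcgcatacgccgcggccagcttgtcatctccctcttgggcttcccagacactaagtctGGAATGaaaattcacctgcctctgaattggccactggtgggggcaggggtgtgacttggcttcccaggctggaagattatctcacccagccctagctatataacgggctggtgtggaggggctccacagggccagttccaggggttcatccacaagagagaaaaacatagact

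In the *Cyr61* promoter the letters began 103 bases before the gene start, in the *Amotl2* promoter 65 bases and in the *Ankrd1* promoter 210 and 123 bases before it. In the *Yap1* promoter they began 141 bases before the start. *Cyr61* and *Amotl2* thus share the letters in the same orientation, and differ in the direction of their change on day 7 by TMM. On TPM they differ in direction only relative to the median of all genes.

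**Figure D3:**
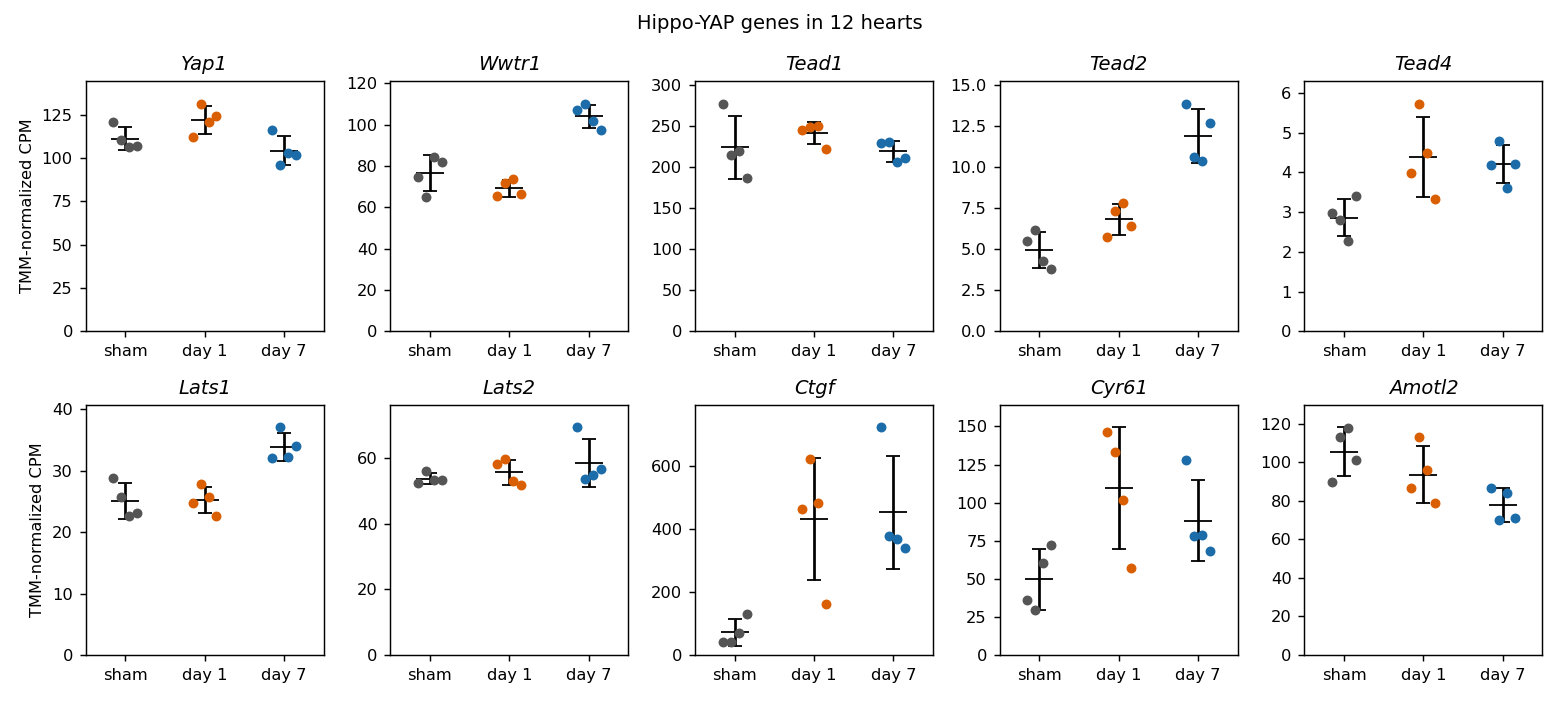
TMM-normalized CPM (vertical axes, from 0) of each gene in every heart of the 3 groups, with hearts 1 to 4 from left to right and bars for the mean and SD (n = 4). The means of *Ctgf*, *Cyr61* and *Tead2* stand higher on both days than in sham hearts, and *Wwtr1* and *Lats1* step up on day 7. The downward steps of *Amotl2* and *Yap1* on day 7 are not seen on TPM, where the median of all genes shifted up.

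The kinases LATS1 and LATS2 sit directly above YAP and TAZ. *Lats1* (ENSMUSG00000040021, chr10:7681214-7716460, GRCm38) was at 28.8, 25.8, 22.6 and 23.1 CPM in sham hearts 1 to 4, at 24.8, 27.9, 25.7 and 22.7 CPM on day 1, and at 32.1, 37.1, 32.2 and 34.1 CPM on day 7. Every day 7 heart lay above every sham and day 1 heart, while the sham and day 1 hearts overlapped. *Lats1* was higher on day 7 than in sham hearts (log2 FC 0.43, SE 0.096, adjusted p = 0.00134) and than on day 1 (log2 FC 0.42, SE 0.095, adjusted p = 0.00237), and on day 1 its log2 FC against sham was 0.011 with a 95% interval of -0.19 to 0.22 (adjusted p = 0.937). *Lats2* (ENSMUSG00000021959, chr14:57689662-57758388), its paralog, was at 52.2, 55.9, 53.4 and 53.3 CPM in sham hearts, at 58.2, 59.5, 52.9 and 51.8 CPM on day 1 and at 69.2, 53.5, 54.7 and 56.5 CPM on day 7. The groups overlapped, with the first day 7 heart above all others. The intervals of its log2 FC were -0.14 to 0.24 on day 1 and -0.064 to 0.31 on day 7 against sham, and no adjusted p fell below 0.24. On TPM, where the median of all genes shifted up, both kinases were higher in every AMI heart than in every sham heart, with *Lats2* at 11.3 to 14.2 TPM in sham and 17.8 to 23.7 TPM on day 7. The gene of the second *Lats2* identifier, named *Gm49361* in GENCODE M21, lies on the same strand and covers 42.4% of the exon bases of *Lats2*, and how reads shared by both were counted is not stated. The ratio of *Lats2* to *Lats1* in TPM was 2.73, 3.31, 3.37 and 3.48 in sham hearts, 3.51, 3.17, 3.04 and 3.34 on day 1 and 3.21, 2.11, 2.54 and 2.41 on day 7, with overlap in every comparison (exact permutation test, two-sided, p = 0.0571 for day 7 against sham).

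*Yap1* (ENSMUSG00000053110, chr9:7931999-8004596) and *Wwtr1* (ENSMUSG00000027803, chr3:57455649-57575910) encode the paired coactivators that LATS kinases inhibit. *Yap1* was at 121, 110.2, 106 and 107 CPM in sham hearts, at 112, 131, 121 and 124 CPM on day 1 and at 116, 96.2, 103 and 102 CPM on day 7. Its groups overlapped in all 3 comparisons. Against sham its log2 FC was 0.14 on day 1 (95% interval -0.035 to 0.31, adjusted p = 0.188) and -0.092 on day 7 (95% interval -0.26 to 0.079, adjusted p = 0.336). Between day 1 and day 7 *Yap1* fell by 0.23 on the log2 scale (SE 0.079, adjusted p = 0.0296), a call that was lost without any of day 1 hearts 2, 3 and 4 or day 7 hearts 2, 3 and 4, with adjusted p of 0.0536 to 0.084. The value turned to 0.016 on log2(TPM + 1), where the median of all genes was 0.18, and it was -0.17 relative to that median. In TPM *Yap1* was at 33.0, 36.6, 32.6 and 31.8 in sham hearts, 40.0, 48.5, 43.9 and 47.4 on day 1 and 50.8, 40.9, 44.2 and 45.8 on day 7, so that every AMI heart lay above every sham heart on that scale.

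*Wwtr1* was at 74.7, 64.9, 84.3 and 81.9 CPM in sham hearts, at 65.3, 71.6, 73.6 and 66.2 CPM on day 1 and at 107, 110.0, 102 and 97.1 CPM on day 7. All 4 day 7 hearts lay above all 8 others, and the sham and day 1 hearts overlapped. *Wwtr1* was higher on day 7 than in sham hearts (log2 FC 0.44, SE 0.087, adjusted p = 0.000541) and than on day 1 (log2 FC 0.59, SE 0.087, adjusted p = 0.000106). Its log2 FC on day 1 against sham was -0.14 (adjusted p = 0.202), and became 0.13 with library size alone and 0.17 on TPM, where the median of all genes was 0.26 and 0.23. The balance of the coactivators was then read within each heart. *Wwtr1* stood at 0.507, 0.463, 0.652 and 0.615 of *Yap1* in TPM in sham hearts, at 0.489, 0.451, 0.499 and 0.443 on day 1 and at 0.760, 0.955, 0.795 and 0.791 on day 7. *Yap1* was thus the more abundant transcript per length in all 12 hearts, and the ratio was higher in every day 7 heart than in any other. It was 1.48-fold higher on day 7 than in sham hearts and 1.75-fold higher than on day 1, and each had p = 0.0286 (exact permutation test, two-sided), which is the smallest that 4 hearts against 4 allow. There were 21 such tests on ratios and shares, and adjusted over them each of these p-values became 0.0857. Neither difference passed the threshold, but with 4 hearts in a group none could unless most of the 21 tests reached the smallest p. On day 1 the ratio did not differ beyond the spread from sham (exact p = 0.114).

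**Figure D4:**
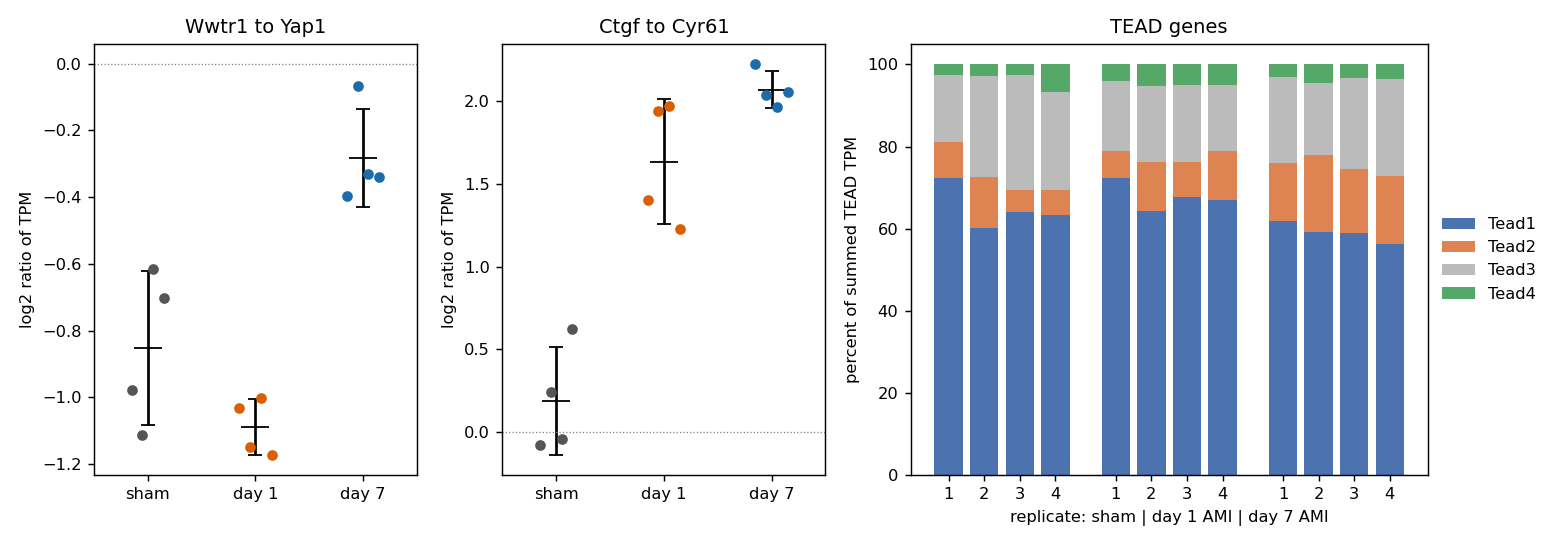
Log2 ratio of *Wwtr1* to *Yap1* (left) and of *Ctgf* to *Cyr61* (middle) in TPM in each heart, with bars for the mean and SD (n = 4), and the percent of summed *Tead1* to *Tead4* TPM taken by each gene in hearts 1 to 4 of each group (right). The day 7 hearts lie above the other 8 for *Wwtr1* to *Yap1*, all AMI hearts lie above all sham hearts for *Ctgf* to *Cyr61*, and the *Tead2* share is largest on day 7.

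TEAD proteins carry YAP and TAZ to DNA, and mice have 4 of them. *Tead1* (ENSMUSG00000055320, chr7:112679318-112906807), the main TEAD gene of heart muscle, was at 278, 215, 219 and 186 CPM in sham hearts, at 245, 249, 250.4 and 222 CPM on day 1 and at 229.6, 230.3, 207 and 211 CPM on day 7. The groups overlapped throughout. Its log2 FC against sham was 0.11 on day 1 (95% interval -0.12 to 0.33) and -0.033 on day 7 (95% interval -0.26 to 0.19), with adjusted p of 0.441 and 0.803. The day 7 value became 0.37 with library size alone and 0.57 on TPM, where the median of all genes was 0.43 and 0.44. *Tead2* (ENSMUSG00000030796, chr7:45215753-45233644), known mainly from embryonic tissue, was at 5.53, 6.16, 4.27 and 3.78 CPM in sham hearts, at 5.74, 7.31, 7.82 and 6.40 CPM on day 1 and at 13.9, 10.6, 10.4 and 12.7 CPM on day 7, from 79 to 150 counts in sham hearts and 275 to 450 on day 7. Every day 7 heart was above every sham and day 1 heart. *Tead2* was 2.41-fold higher on day 7 than in sham hearts (log2 FC 1.27, SE 0.17, adjusted p = 1.80e-05) and higher than on day 1 (log2 FC 0.80, SE 0.16, adjusted p = 0.00105). Its rise on day 1 (log2 FC 0.47, SE 0.17, adjusted p = 0.0388) was lost without sham heart 3, sham heart 4, day 1 heart 2 or day 1 heart 3, with adjusted p of 0.0911 to 0.117. It was also lost with only the sham and day 1 hearts fitted (adjusted p = 0.0559) and on log2(TPM + 1), where the log2 FC was 0.54 (limma, adjusted p = 0.0909).

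*Tead4* (ENSMUSG00000030353, chr6:128224288-128300823) was the least abundant of the 10 genes, with 47 to 71 counts in sham hearts, 104 to 192 on day 1 and 98 to 136 on day 7. It was at 2.97, 2.79, 2.28 and 3.39 CPM in sham hearts, at 3.98, 5.73, 4.48 and 3.34 CPM on day 1 and at 4.19, 4.79, 3.62 and 4.22 CPM on day 7. Only the day 7 hearts lay wholly above the sham hearts. It was higher than in sham hearts on day 1 (log2 FC 0.62, SE 0.19, adjusted p = 0.0167) and on day 7 (log2 FC 0.55, SE 0.19, adjusted p = 0.0197), and each call was lost when 1 of 2 hearts was left out: without sham heart 3 or day 1 heart 2 the adjusted p on day 1 was 0.0525 and 0.0669, and without sham heart 3 or day 7 heart 2 that on day 7 was 0.0641 and 0.0561. Relative to the median of all genes *Tead4* was 0.63 on day 1 and 0.53 on day 7 with TMM. On log2(TPM + 1) these became 0.36 and 0.12. *Tead3*, the fourth gene of the family and not among the 10, had log2 FCs of -0.24 on day 1 and -0.021 on day 7 against sham and 0.22 between the days, with adjusted p of 0.234 or more. Of the summed TPM of *Tead1* to *Tead4*, *Tead1* took 65.0% ± 5.17 in sham hearts, 67.8% ± 3.35 on day 1 and 59.0% ± 2.31 on day 7 (SD, n = 4). *Tead2* took 8.79, 12.5, 5.28 and 5.92% in sham hearts, 6.49, 12.0, 8.52 and 11.8% on day 1 and 14.2, 18.8, 15.6 and 16.6% on day 7. The *Tead2* share was higher in every day 7 heart than in any sham or day 1 heart, by 8.18 and 6.61 percentage points (exact permutation test, two-sided, p = 0.0286 for each, adjusted p = 0.0857). Between day 1 and day 7 the *Tead1* share dropped by 8.85 points without overlap (exact p = 0.0286, adjusted p = 0.0857), and the shares of *Tead3* and *Tead4* overlapped between groups.

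*Ctgf* and *Cyr61* encode secreted matricellular proteins of the CCN family (CCN2 and CCN1) and are the most used readouts of YAP and TAZ. *Ctgf* (ENSMUSG00000019997, chr10:24595442-24598683) was at 41.7, 42.1, 71.3 and 131 CPM in sham hearts, at 463, 623, 484 and 162 CPM on day 1 and at 724, 380.2, 369.8 and 341 CPM on day 7. Every AMI heart lay above every sham heart, and day 1 heart 4 at 162 CPM came close to sham heart 4. *Ctgf* was 6.04-fold higher on day 1 (log2 FC 2.59, SE 0.43, adjusted p = 0.000406) and 6.33-fold higher on day 7 (log2 FC 2.66, SE 0.43, adjusted p = 0.000114). Between day 7 and day 1 the log2 difference was 0.068, with a 95% interval of -0.80 to 0.94. The antisense gene *Gm15270* covers 23.2% of the exon bases of *Ctgf* and held 3 to 36 counts per library, and the strand counted is not stated. *Cyr61* (ENSMUSG00000028195, chr3:145646976-145649981) was at 36.3, 29.3, 60.4 and 72.2 CPM in sham hearts, at 146, 133, 102 and 56.9 CPM on day 1 and at 128, 78.2, 78.9 and 68.1 CPM on day 7. Its groups overlapped: day 1 heart 4 lay below sham hearts 3 and 4, and day 7 heart 4 below sham heart 4. *Cyr61* was higher on day 1 (log2 FC 1.15, SE 0.31, adjusted p = 0.00965) and on day 7 (log2 FC 0.83, SE 0.31, adjusted p = 0.0323), and the day 7 call was lost in DESeq2 (adjusted p = 0.0571) and, in edgeR, without sham heart 1, sham heart 2 or day 7 heart 1, with adjusted p of 0.0941, 0.0906 and 0.119.

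The log2 FC of *Ctgf* was above that of *Cyr61* in both comparisons with sham. The ratio of *Ctgf* to *Cyr61* in TPM was 0.947, 1.18, 0.970 and 1.54 in sham hearts, 2.64, 3.84, 3.93 and 2.34 on day 1 and 4.68, 4.10, 3.90 and 4.15 on day 7. It was higher in every AMI heart than in any sham heart, by 2.73-fold on day 1 and 3.69-fold on day 7 (exact permutation test, two-sided, p = 0.0286 and adjusted p = 0.0857 for each), and the day 7 and day 1 hearts overlapped (exact p = 0.0571). *Amotl2* (ENSMUSG00000032531, chr9:102716672-102733418) encodes an angiomotin-like protein that binds YAP and is itself a target. It was at 89.7, 113, 118 and 101 CPM in sham hearts, at 86.6, 113, 96.1 and 78.8 CPM on day 1 and at 86.8, 69.9, 84.0 and 71.0 CPM on day 7. The day 7 hearts lay below all sham hearts, and the day 1 hearts overlapped with both. With TMM *Amotl2* was lower on day 7 than in sham hearts (log2 FC -0.44, SE 0.12, adjusted p = 0.00632), but with library size alone the log2 FC was -0.047 (adjusted p = 0.777) and on log2(TPM + 1) it was 0.21 (limma, adjusted p = 0.196). In TPM *Amotl2* was at 24.1 to 37.5 in sham hearts and 33.2 to 39.1 on day 7. On every scaling it lay below the median of all genes on day 7, at -0.23 relative to it on log2(TPM + 1) and -0.47 with library size alone.

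Of the 10 genes, 1 on day 1 (*Ctgf*) and 5 on day 7 (*Wwtr1*, *Tead2*, *Tead4*, *Lats1* and *Ctgf*) had all AMI hearts above all sham hearts in CPM, against 19.6% and 28.3% of all genes tested, and 1 on day 7 (*Amotl2*) had all AMI hearts below, against 24.7%. Between the days, 3 (*Wwtr1*, *Tead2* and *Lats1*) rose without overlap, against 23.5% of all genes. Per length, the sham hearts held *Ctgf* at 36.8 ± 21.8 TPM (SD, n = 4), *Yap1* at 33.5 ± 2.15, *Tead1* at 31.7 ± 4.11, *Amotl2* at 31.4 ± 6.26 and *Cyr61* at 30.6 ± 12.4 TPM, and the ranges of these 5 overlapped. *Wwtr1* followed at 18.6 ± 2.17 and *Lats2* at 12.5 ± 1.25 TPM, and then *Tead2* at 4.05 ± 2.02, *Lats1* at 3.89 ± 0.382 and *Tead4* at 1.72 ± 0.681 TPM. *Wwtr1* and *Cyr61* overlapped, as did *Tead2* and *Lats1*, whereas *Wwtr1* and *Lats2*, *Lats2* and *Tead2*, and *Lats1* and *Tead4* did not. On day 1 *Ctgf* at 274 ± 121 and *Cyr61* at 84.1 ± 29.5 TPM headed the order, and then came *Yap1* at 44.9 ± 3.85, *Tead1* at 42.7 ± 2.50, *Amotl2* at 35.7 ± 5.50, *Wwtr1* at 21.1 ± 1.11, *Lats2* at 16.0 ± 1.10, *Tead2* at 6.14 ± 1.89, *Lats1* at 4.91 ± 0.370 and *Tead4* at 3.05 ± 0.519 TPM. Of these neighbours, *Amotl2* and *Wwtr1*, *Wwtr1* and *Lats2*, *Lats2* and *Tead2*, and *Lats1* and *Tead4* did not overlap. On day 7 the order was *Ctgf* at 343 ± 137, *Cyr61* at 80.1 ± 24.7, *Tead1* at 47.5 ± 5.45, *Yap1* at 45.4 ± 4.12, *Wwtr1* at 37.3 ± 1.87, *Amotl2* at 35.9 ± 2.42, *Lats2* at 19.8 ± 2.73, *Tead2* at 13.1 ± 1.46, *Lats1* at 7.76 ± 0.614 and *Tead4* at 2.93 ± 0.486 TPM. *Wwtr1* had moved above *Amotl2* in mean level, and among neighbours the pairs *Tead1* and *Yap1* and *Wwtr1* and *Amotl2* overlapped.

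The hearts differed in the levels of cell type markers, and in bulk tissue fewer cells of a type and less RNA per cell cannot be told apart. The summed CPM of 10 cardiomyocyte markers was 91383 to 105027 in sham hearts, 54710.0 to 68586 on day 1 and 48105 to 55807 on day 7. In the same order of groups, that of 10 fibroblast markers ran from 2459.8 to 2832, 2491 to 3509 and 8010.3 to 15309, and that of 8 myofibroblast markers from 200.2 to 319, 522 to 987 and 2948 to 7053. The heart was thus recognisable by its muscle markers in every library, and on day 7 the fibroblast and myofibroblast sums lay above those of all other hearts, as *Wwtr1*, *Tead2* and *Lats1* did. The endothelial sum did so only barely, at 1398 CPM in the lowest day 7 heart and 1395 CPM in the highest sham heart. At an FDR below 0.05, 9 of 10 fibroblast, 8 of 8 myofibroblast and 9 of 10 leukocyte markers were higher on day 7 than in sham hearts, where 30.9% of all genes were. The other fibroblast marker, *Gsn*, was lower, as were 8 of 10 cardiomyocyte markers, where 28.4% of all genes were. The sums of 10 leukocyte markers ran from 212 to 323, 452 to 719.7 and 674 to 1019.8 CPM. Those of 10 endothelial markers ran from 1199 to 1395, 1010.4 to 1071 and 1398 to 1581 CPM, those of 8 mural markers from 1204 to 1359.6, 804 to 973 and 1283 to 1497 CPM, and those of 5 erythroid markers from 491 to 4450.4, 420.4 to 649 and 241 to 969 CPM. In the comparison of day 7 with sham, 6 of 10 endothelial markers were higher and 2 lower, 4 of 8 mural markers were higher and 2 lower, and 0 of 5 erythroid markers were higher and 3 lower, against the same 30.9% and 28.4% of all genes. All markers of the 7 lists were among the genes tested. The part of these markers in the changes of the 10 genes was not tested.

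The other regulators of the pathway made a list of 28 genes. Of 27 tested, 11 were higher and 1 lower than in sham hearts on day 1, with a median log2 FC of 0.25, and 17 were higher and 2 lower on day 7, with a median of 0.39, where 22.0% and 30.9% of all genes were higher and 19.9% and 28.4% lower. *Vgll2* did not pass the filter. From day 1 to day 7, 10 were higher and 3 lower, with a median of 0.19, where 24.2% and 22.8% of all genes were. The kinase cofactors *Mob1a* and *Sav1*, which help MST and LATS kinases, had log2 FCs of 0.95 and 0.41 on day 7 (adjusted p = 2.73e-07 and 0.000336). The MST kinase genes *Stk3* and *Stk4* rose by 0.50 and 0.32 on day 7 (adjusted p = 0.0104 and 0.017). On day 1, 0 of the 27 were DEGs upward, where 7.79% of all genes were, and on day 7 it was 3, where 15.3% were. The 3 were *Vgll3*, a cofactor that binds TEAD, at 4.82 ± 0.382 CPM in sham hearts and 22.0 ± 7.52 CPM on day 7 (log2 FC 2.19, SE 0.21, adjusted p = 1.20e-06), the protocadherin gene *Dchs1* (log2 FC 1.24, adjusted p = 9.75e-07), and the kinase gene *Taok3* (log2 FC 1.16, adjusted p = 1.55e-05). *Fat4*, the protocadherin partner of *Dchs1*, was lower on day 1 (-0.26, adjusted p = 0.0201) and higher on day 7 (0.63, adjusted p = 1.63e-05). Its day 1 value was 0.0096 with library size alone and 0.032 on TPM, below the medians of all genes of 0.26 and 0.23. *Nf2*, which encodes Merlin, an activator of LATS, was lower on day 7 by TMM (-0.38, adjusted p = 0.00102). It was 0.023 with library size alone and 0.18 on TPM, below the medians of all genes of 0.43 and 0.44.

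**Figure D5:**
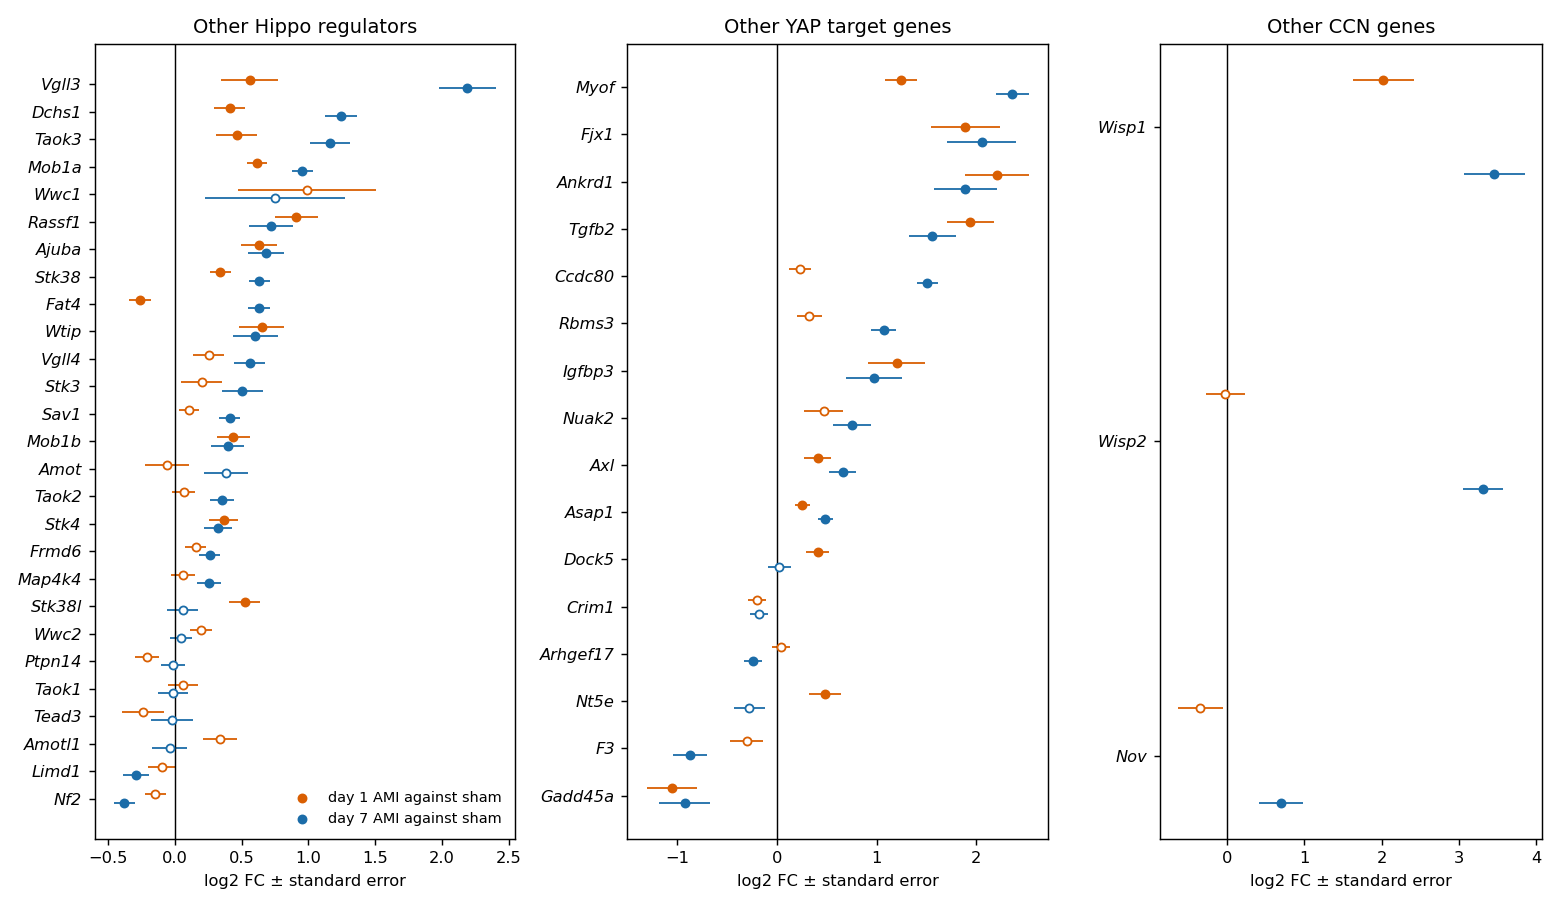
Log2 FC with standard error (horizontal axes) of the other Hippo regulators, the other YAP target genes and the other CCN genes on day 1 and day 7 against sham, with filled points for an FDR below 0.05. *Vgll3* leads the regulators at 2.19 on day 7 and *Myof* the targets at 2.36. The lowest day 7 values of the regulators, *Nf2* and *Limd1*, turn positive with library size alone or TPM but stay below the median of all genes.

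Of 17 other genes known as YAP or TAZ targets, 16 were tested, and 9 were higher and 1 lower on day 1, with a median log2 FC of 0.41, and 10 higher and 3 lower on day 7, with a median of 0.71. The shares of all genes were 22.0% and 30.9% higher and 19.9% and 28.4% lower, and *Foxf2* did not pass the filter. On day 1, 5 of the 16 were DEGs that rose, against 7.79% of all genes, and on day 7 it was 6, against 15.3%. *Ankrd1* was at 522, 373, 972 and 1159 CPM in sham hearts, at 3956, 4484, 3215 and 2338 CPM on day 1 and at 2569, 2759.6, 3698 and 2195 CPM on day 7. All AMI hearts lay above all sham hearts, with log2 FCs of 2.21 and 1.89 (adjusted p = 0.000142 and 0.000131). The other DEGs of day 1 were the growth factor gene *Tgfb2* (1.94), *Fjx1* (1.89), the membrane repair gene *Myof* (1.24), the IGF-binding gene *Igfbp3* (1.20), and, downward, the stress gene *Gadd45a* (-1.06), with adjusted p of 0.00454 or less. The call of *Gadd45a* was lost on log2(TPM + 1), at -0.66 (limma, adjusted p = 0.0584), where the median of all genes was 0.23. On day 7 the DEGs that rose were *Myof* (2.36), *Fjx1* (2.06), *Ankrd1*, *Tgfb2* (1.56), the matrix gene *Ccdc80* (1.51) and *Rbms3* (1.07), with adjusted p of 0.000152 or less. Between day 1 and day 7, 4 targets were higher and 4 lower, with a median of 0.073, near the 24.2% and 22.8% of all genes. *Ccdc80* and *Myof* were DEGs (1.28 and 1.12), against 8.55% of all genes. *Ankrd1*, *Tgfb2* and *Ctgf* had log2 FCs of -0.32, -0.38 and 0.068 from day 1 to day 7 without passing the test. *F3*, the tissue factor gene, was lower on day 7 than in sham hearts at -0.88 (adjusted p = 0.000456). With library size alone it was -0.48 (edgeR, adjusted p = 0.0179), but the call was lost on log2(TPM + 1), at -0.33 (limma, adjusted p = 0.0616).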

How the data were processed

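RNA from 12 whole hearts was sequenced by the authors as 150-bp paired-end reads, aligned with STAR 2.4.0j to the Ensembl GRCm38 mouse reference (mm10 per the labels), and quantified with RSEM after base calling with CASAVA 1.8. The deposited raw counts were whole numbers for 53801 gene identifiers, and the deposited TPM came from RSEM. Which program made the raw counts, on which strand, and what was done with reads shared between genes is not given in the sources used here. Samples were grouped by their labels. Hearts of one number are different mice: the correlation of same-numbered deviations ran from -0.244 to 0.229 over 12 pairs, so the numbers were not taken as pairs. Libraries of one group differed by a chi-square per degree of freedom of at least 9.19.

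Counts were fitted with edgeR 4.0.16 in R 4.3.3 (TMM, filterByExpr by group, quasi-likelihood test, one fit of 3 groups), with Benjamini-Hochberg adjustment over 15306 genes. Standard errors are those implied by the F statistic, and 95% intervals use the t quantile with the fit's degrees of freedom. The paper's methods used DESeq2, which is an alternative here. Ratios and shares came from the deposited TPM with no pseudocount and were compared by exact two-sided permutation tests. Marker sums and likeness of profiles used TMM-normalized CPM. The fits were checked on simulated data with known changes. The simulation raised as many genes as it lowered and held no shift of all genes between groups, so it does not test the choice of scaling. Plots were made with matplotlib 3.10.9 (Python 3.11.15).

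The alternatives were RLE size factors, library size alone, no filter, DESeq2 1.42.0, limma 3.58.1 on log2(TPM + 1) and log2(TPM + 0.1), only the groups compared, a replicate block, CPM in place of TPM for ratios, and each heart left out in turn. The named genes were the 10 members, the DEGs of the hand-written lists, the CCN family, *Tead3*, and the 3 genes most like *Yap1* and *Ctgf*. *Mob1a*, *Sav1*, *Stk3*, *Stk4*, *Fat4*, *Nf2*, *Limd1* and *F3* were named after their values were seen. The members and lists were chosen with earlier results of these data known, and the list of other YAP targets was written from memory of a published signature.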

Additional observations from a re-analysis of the deposited data

Results flagged for a closer look

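Of 30 groups tested for a heart far from the others (10 genes in 3 groups), 2 held one, and chance gives about 1 in 20. For *Tead1* in day 1 AMI the gap of heart 4 to its nearest neighbour was 0.834 of the group's range in log2 CPM, at 222 CPM against 245 to 250.4 CPM in the other 3. Without it the log2 FC of *Tead1* on day 1 against sham was 0.15 (edgeR, adjusted p = 0.321). For *Ctgf* in day 7 AMI the gap of heart 1 was 0.857 of the range, at 724 CPM against 341 to 380.2 CPM in the other 3. Without it the log2 FC of *Ctgf* on day 7 against sham was 2.34 (edgeR, adjusted p = 0.000378).

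The changes from sham on day 7 and on day 1 differed for 4 of the 10 genes in edgeR's test of the difference, which is the comparison of day 7 with day 1, where 24.2% of all genes were higher and 22.8% lower. The log2 difference was -0.23 for *Yap1* (adjusted p = 0.0296), 0.59 for *Wwtr1* (adjusted p = 0.000106), 0.80 for *Tead2* (adjusted p = 0.00105) and 0.42 for *Lats1* (adjusted p = 0.00237). The *Yap1* value turned to 0.016 on log2(TPM + 1), where the median of all genes was 0.18. Those of *Wwtr1*, *Tead2* and *Lats1* stayed positive with library size alone and on TPM.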

How the results depend on the processing

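Results are given for library size alone, log2(TPM + 1) and log2(TPM + 0.1) in that order. These scalings raised the median of all genes, as the report gives, and under each the share of calls that were higher grew. On day 1 the members (the 10 genes) higher became 8, 7 and 7, the other regulators higher 21, 20 and 20, and those lower 0. Of the 15306 genes tested, 6289, 6171 and 6391 were higher and 1061, 737 and 762 lower. Regulators that were DEGs became 2, 1 and 2, the targets that were DEGs downward 0, and the targets lower 0 on both TPM scales. Of all genes, 1764, 957 and 1751 were DEGs upward and 217, 63 and 145 downward. On day 7 the members lower became 0, the regulators lower 0, and the targets lower 1, 0 and 0. Among all genes 1659, 1023 and 1009 were lower. *Yap1*, *Tead1* and *Lats2* passed as higher than in sham hearts under each scaling, where 8237, 9423 and 9462 of all genes were higher. *Cyr61* became a DEG under each, at 1.23, 1.41 and 1.44. The regulators that were DEGs became 8, 9 and 12, where 3633, 2668 and 4163 of all genes were DEGs upward. On log2(TPM + 0.1) the members that were DEGs became 4 and the regulators higher 26. Between the days the members lower became 0, the regulators lower 1, 0 and 0 and the targets lower 2, 1 and 1. Among all genes 2168, 1302 and 1268 were lower. The regulators that were DEGs became 2 with library size alone and 3 on log2(TPM + 0.1), and the members that were DEGs 1 on both TPM scales. Among all genes 1626, 879 and 1734 were DEGs upward. The log2 FC that changed sign on day 1 were those of *Wwtr1* (0.13, 0.17 and 0.18) and *Amotl2* (0.091, 0.19 and 0.19), and on day 7 those of *Yap1* (0.31, 0.43 and 0.44), *Tead1* (0.37, 0.57 and 0.59) and, on both TPM scales, *Amotl2* (0.21 and 0.21). Between the days it was *Tead4* with library size alone (0.066), and on both TPM scales *Yap1* (0.016 and 0.016), *Tead1* (0.15 and 0.15) and *Amotl2* (0.019 and 0.019). With no filter the regulators lower on day 1 and the members lower from day 1 to day 7 became 0, and with only the groups compared the regulators lower on day 1 became 2 and the targets lower 3. With CPM in place of TPM the *Tead4* share changed sign, to 0.492 points on day 7 against sham and 0.0327 against day 1. RLE size factors changed no direction or call of the 10 genes. The cause of these changes other than the shift of all genes was not tested.

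The replicate numbers do not pair the hearts. With a replicate block in edgeR the calls of *Tead2* on day 1 (adjusted p = 0.0568), *Cyr61* on day 7 (adjusted p = 0.0639) and *Yap1* between the days (adjusted p = 0.0528) were lost, so that the members higher became 3 on day 1 and 5 on day 7 and the members lower between the days 0, and no other call of the 10 genes changed. For the ratios, the sign-flip test within replicate numbers left the differences of 0.57 and 0.81 for *Wwtr1* to *Yap1* (day 7 against sham and day 1) and 1.45 and 1.88 for *Ctgf* to *Cyr61* (day 1 and day 7 against sham) at p = 0.125, the smallest that 4 pairs allow in an exact test, so it says nothing of their stability.

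With each heart left out in turn, on day 1 the members higher ran from 2 to 4 (2 without sham heart 3 or day 1 heart 2), the members lower from 0 to 1 (*Wwtr1*, without sham heart 2) and the members that were DEGs from 1 to 2 (1 without sham heart 2 or day 1 heart 1). The regulators lower ran from 0 to 2 (0 without sham heart 3 or day 1 heart 2), the regulators that were DEGs from 0 to 1, the targets lower from 1 to 2 and the targets that were DEGs downward from 0 to 1 (0 without sham heart 3, sham heart 4 or day 1 heart 2). On day 7 the regulators lower ran from 1 to 2 and the targets that were DEGs downward from 0 to 2. Between the days the members lower ran from 0 to 1, the regulators lower from 1 to 5 and the targets that were DEGs from 1 to 2. *Amotl2* passed from day 1 to day 7 without day 1 heart 4 (adjusted p = 0.0355). The log2 FC that crossed 0 were not past the threshold: on day 1 *Lats1* (-0.038 to 0.084), on day 7 *Tead1* (-0.12 to 0.081), and from day 1 to day 7 *Tead4* (-0.18 to 0.092), *Lats2* (-0.018 to 0.11) and *Ctgf* (-0.25 to 0.29). The log2 ratio of *Wwtr1* to *Yap1* differed by -0.32 to -0.16 on day 1 and 0.48 to 0.65 on day 7 against sham (without day 7 heart 2, exact p = 0.0571), that of *Ctgf* to *Cyr61* by 0.30 to 0.55 from day 1 to day 7, and that of *Lats2* to *Lats1* by -0.053 to 0.064 on day 1 and -0.47 to -0.27 from day 1 to day 7. The share of *Tead1* differed by -7.61 to -3.55 points on day 7 against sham and -10.0 to -7.35 against day 1 (exact p = 0.0571 without day 7 heart 4), that of *Tead2* by 7.23 to 9.64 on day 7 against sham (exact p = 0.0571 without any 1 day 7 heart), that of *Tead3* by -7.86 to -3.94 on day 1 and 2.54 to 4.59 from day 1 to day 7, and that of *Tead4* by 0.744 to 2.14 on day 1 and -0.415 to 0.980 on day 7. Depth limits *Tead4* most, with 47 to 71 counts in sham hearts.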

Other observations

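*Ctgf* and *Cyr61* belong to the CCN family of matricellular genes, and the 3 others tested did not follow one course. *Wisp2* (CCN5) was at 6.00, 7.93, 10.5 and 17.8 CPM in sham hearts, 9.52, 10.8, 8.51 and 12.8 CPM on day 1 and 126, 94.0, 102 and 95.9 CPM on day 7. The day 1 hearts lay within the range of the sham hearts, and the day 7 hearts all lay far above, with a log2 FC of 3.31 against sham (edgeR, adjusted p = 1.89e-07). *Wisp1* (CCN4) was at 6.00, 4.35, 1.16 and 2.06 CPM in sham hearts, 12.7, 17.8, 14.2 and 10.3 CPM on day 1 and 56.6, 42.2, 23.4 and 26.6 CPM on day 7, so that the 3 groups did not overlap. Its log2 FC was 2.02 on day 1 and 3.46 on day 7 (adjusted p = 0.00113 and 5.13e-06). *Nov* (CCN3) had log2 FCs of -0.34 on day 1 (adjusted p = 0.365) and 0.70 on day 7 (adjusted p = 0.0455), and *Wisp3* held 0 to 4 counts in sham hearts and 0 to 3 on day 7 and was not tested. Between the days, 3 of these 4 were DEGs that rose, at 1.04, 1.43 and 3.32, against 8.55% of all genes tested, while *Ctgf* and *Cyr61* were at 0.068 and -0.31 without passing the test.

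By the root mean square difference of centred log2 CPM over 12 libraries, the tested genes most like *Yap1* were *Crkl* (0.0347), *Arhgef18* (0.0502) and *Lrch4* (0.0544). Those most like *Ctgf* were *F2rl1* (0.462), *Fjx1* (0.483) and *Ccl3* (0.485). Their mean levels in sham hearts were low, at 0.58, 0.62 and 0.14 CPM, and that of *Ccl3* lay at the floor of a library. The measure grows with a gene's own spread, so its sizes are not compared between *Yap1* and *Ctgf*. *Fjx1* is itself on the list of YAP targets, and *Ccl3* encodes a chemokine.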
